A study of Homo sapiens with 8 samples.

Results

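MALAT1, NEAT1, MEG3, DANCR, TUG1, CRNDE, CASC15, NORAD, SOX2-OT and MIAT are long noncoding RNAs (lncRNAs) that are widely studied in cancer. They were taken by name, and all 10 names were found by Ensembl identifier among the 60668 genes listed in each library. Of these 10, 7 had more than 1 CPM (counts scaled to the size of each library) in all 8 libraries and were tested among 15222 expressed genes, and MEG3, CASC15 and SOX2-OT stayed below that level in all 8.

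The libraries hold polyA+ RNA of D283-OMO cells, a derivative of the medulloblastoma line D283 Med. The line carries a lentiviral transgene for OMOMYC, a dominant-negative form of the transcription factor MYC that is switched on by doxycycline (DOX). Untreated cells gave 4 libraries (OMO_1 to OMO_4) and cells kept in DOX for 72 h gave 4, and the untreated cells carry the same transgene without the inducer. Libraries of cells treated with DOX in the absence of the transgene were not analysed here, so effects of DOX and of OMOMYC cannot be told apart in these values. The methods of the study call the replicates of each condition independent and biological, and the labels say nothing of how the cultures were kept apart.

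Total counts ranged from 38390696 to 54020506 per library. MYC itself stood at 939 ± 75.6 CPM (SD, n = 4) without and 1123 ± 56.8 CPM (SD, n = 4) with DOX, a log2 fold change (log2FC) of 0.26 with an adjusted p of 0.00237 in edgeR's quasi-likelihood test, and the counts do not separate MYC from the transgene, which derives from it. The MYC targets CAD, an enzyme of pyrimidine synthesis, and NCL, which encodes nucleolin, fell by 0.48 and 0.44 on the log2 scale (adjusted p = 1.33e-06 and 1.23e-06, edgeR). All 10 markers of neural and Group 3 medulloblastoma cells were expressed, 7 of them lower and 3 higher with DOX, and their summed level went from between 2125 and 2203 CPM to between 1090 and 1116 CPM. Of 17 markers of other cells, 5 passed the filter and 4 of these changed, SLC1A3 and VWF lower and CDH5 higher among them. CDH5 was at 0 in every untreated library and passed the filter only through the DOX libraries. MOG, a defining marker of oligodendrocytes, was at 0 in all 8 libraries. Across all genes 76.6% were called at a false discovery rate (FDR) below 0.05 in either direction, 38.5% higher and 38.1% lower with DOX. Among the 1426 lncRNA genes tested 70.3% were called, 34.2% higher and 36.1% lower. Against this background a call alone says little about any single lncRNA, and the sizes of the changes are given for each.

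lncRNAs act as RNA rather than through a protein. MALAT1 is a nuclear transcript that accumulates in nuclear speckles, which are stores of splicing factors, and NEAT1 is the scaffold of paraspeckles, bodies built from RNA-binding proteins. NORAD is a cytoplasmic RNA that binds Pumilio proteins, repressors of messenger RNAs. TUG1 and CRNDE have been linked to the Polycomb repressive complex PRC2. DANCR was described as a suppressor of differentiation, MEG3 is an imprinted RNA regarded as a tumour suppressor, CASC15 lies in a neuroblastoma susceptibility locus, SOX2-OT spans the SOX2 gene, and MIAT is a nuclear RNA with repeats that bind splicing factor 1.

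Of the 7 tested lncRNAs, NEAT1, DANCR and MIAT rose with DOX, MALAT1, NORAD and TUG1 fell, and CRNDE did not pass the test. This is 6 of 7 called, read against 76.6% of all genes. The changes were small, with a median absolute log2FC of 0.41 beside 0.43 over all genes tested and 0.53 over lncRNA genes. None of the 7 met both limits given in the methods of the study, an FDR below 0.001 and a log2FC beyond 2 in size. Of all genes 7.12% met them. The results text of the study gives a looser FDR limit, and no log2FC of the 7 reached 2 in size. The 4 untreated and the 4 DOX libraries did not overlap for MALAT1, NEAT1, NORAD and DANCR, 4 of 7, beside 71.7% of all genes. These are libraries of a bulk culture, so fewer cells of a kind and less RNA per cell cannot be told apart.

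**Figure D1:**
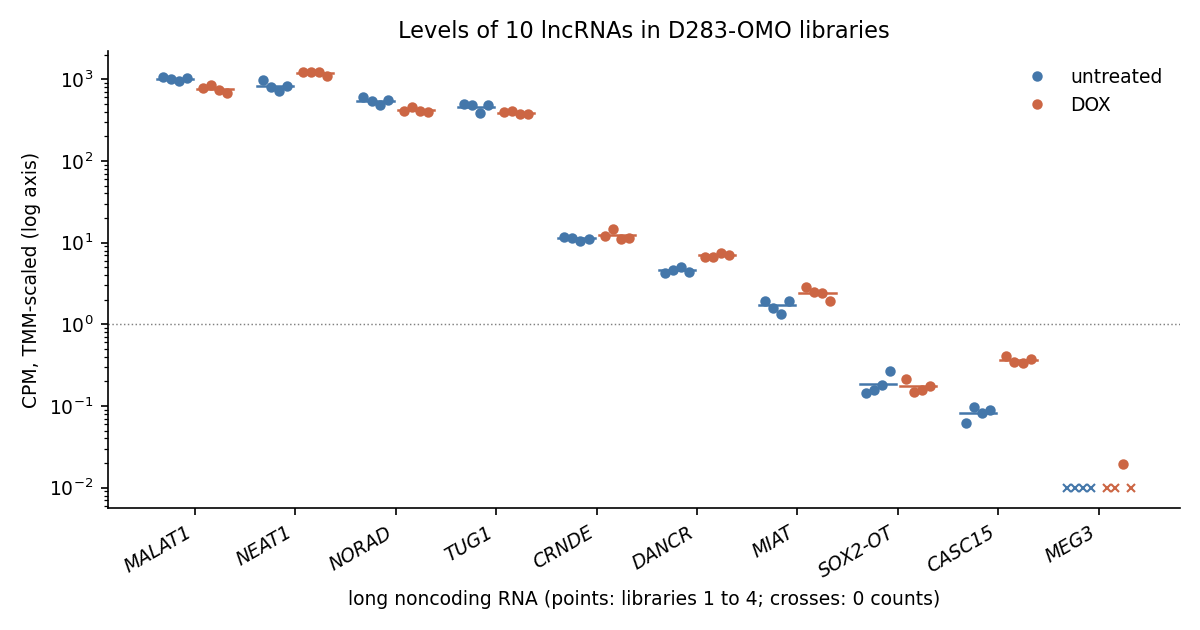
Level of each lncRNA in CPM (log axis) in the 4 untreated and the 4 DOX libraries; lines mark group means, crosses mark libraries with 0 counts and the dotted line marks 1 CPM. MALAT1, NEAT1, NORAD and TUG1 lie between 374.5 and 1245 CPM in every library, CRNDE, DANCR and MIAT between 1.34 and 14.6 CPM, and the remaining 3 below 1 CPM.

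MALAT1 and NEAT1 are neighbours on the plus strand of chromosome 11 (GRCh38), NEAT1 from 65422774 to 65445540 and MALAT1 from 65497688 to 65506516. Both are cleaved by RNase P in place of ordinary polyadenylation, which leaves a triple-helical 3′ end instead of a poly(A) tail, while NEAT1 also has a short polyadenylated isoform. They are shown because capture by oligo(dT), used for these libraries, depends on a run of A. The longest stretch that the last 500 bases of both annotated transcripts share is 16 bases long, and it is set in capitals. In MALAT1 it is followed, after 17 bases, by a genome-encoded run of 13 A, also in capitals, and by the small tRNA-like RNA released by the cleavage. In NEAT1 the shared stretch ends 41 bases before the end of the transcript, and the longest run of A in the last 50 bases is 5.
MALAT1, transcript bases 8244 to 8419, chr11:65506005-65506180, plus strand: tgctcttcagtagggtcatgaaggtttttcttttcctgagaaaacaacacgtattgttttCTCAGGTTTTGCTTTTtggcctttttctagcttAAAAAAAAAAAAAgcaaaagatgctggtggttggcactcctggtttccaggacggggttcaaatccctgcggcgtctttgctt
NEAT1, transcript bases 22634 to 22743, chr11:65445431-65445540, plus strand: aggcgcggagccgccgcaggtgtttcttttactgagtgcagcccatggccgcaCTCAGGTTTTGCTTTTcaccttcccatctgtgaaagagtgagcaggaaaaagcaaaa

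MALAT1 was measured at 1082, 1022, 945 and 1029 CPM in untreated libraries 1 to 4 and at 777, 860, 748 and 689 CPM in DOX libraries 1 to 4. Every DOX library lay below every untreated one. The means were 1020 ± 56.6 and 768.6 ± 70.9 CPM (SD, n = 4 each). MALAT1 fell by 0.41 on the log2 scale (SE 0.07, 1.33 times lower, adjusted p = 0.000168 in edgeR's quasi-likelihood test), and the exact permutation test on CPM gave p = 0.0286, the smallest p that 4 against 4 libraries allow.

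NEAT1 moved the other way. It was measured at 975, 808, 729 and 826 CPM without DOX and at 1245, 1243, 1227 and 1102 CPM with DOX, again with no overlap. The means were 834.5 ± 102.9 and 1204 ± 68.9 CPM (SD, n = 4 each), a log2FC of 0.53 (SE 0.08, 1.44-fold higher, adjusted p = 8.26e-05, edgeR). At 22743 bases its longest transcript is among the longest tested, with only 21 of 15116 genes at least as long, and once the trend of each library with transcript length was removed its log2FC dropped to 0.15 (adjusted p = 0.0384). That correction was added after the data had been seen. The counts do not separate the long isoform, which builds paraspeckles, from the short one.

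Within a library the ratio of NEAT1 to MALAT1 counts needs no scaling for library size. It is not corrected for the trend with transcript length. With that trend removed the log2FC of NEAT1 was 0.15 and that of MALAT1 -0.58. The ratio was 0.901, 0.79, 0.771 and 0.803 in untreated libraries and 1.6, 1.45, 1.64 and 1.6 in DOX libraries. MALAT1 thus had more reads than NEAT1 in every untreated library and fewer in every DOX library. The means were 0.816 ± 0.058 and 1.57 ± 0.0857 (SD, n = 4 each), 1.92 times higher with DOX (exact permutation p = 0.0286, or 0.0429 after Benjamini-Hochberg adjustment over the 9 ratios computed, which were chosen with earlier results known). The ratio of NORAD to MALAT1, in contrast, was 0.536 ± 0.0219 and 0.545 ± 0.0199 (SD, n = 4 each) and its groups overlapped (exact permutation p = 0.6, adjusted p = 0.6).

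**Figure D2:**
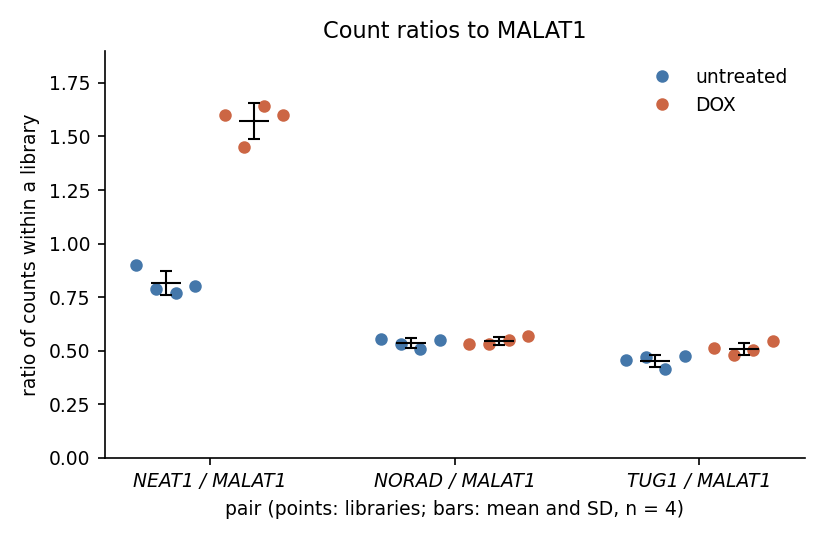
Ratio of the counts of NEAT1, NORAD and TUG1 to those of MALAT1 within each library (points), with the mean and SD of 4 libraries (bars). The NEAT1 ratio lies between 0.771 and 0.901 without and between 1.45 and 1.64 with DOX, while the NORAD ratio overlaps between the groups and the TUG1 ratio goes from 0.454 to 0.509 on average.

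Around the pair, FRMD8, the nearest coding gene on the NEAT1 side, rose by a log2FC of 0.66 (adjusted p = 8.88e-07, edgeR). A separately annotated small RNA within NEAT1, RF01955, which shares 120 exonic bases with it, was at 0.727 ± 0.0911 and 1.49 ± 0.205 CPM (SD, n = 4 each) and rose by 1.04 (adjusted p = 5.54e-05, edgeR). RF01955 passed the filter only through the DOX libraries, and its reads cannot be told apart from those of NEAT1. TALAM1, the antisense transcript of MALAT1, was not matched by name and is not analysed here.

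MIAT lies on chromosome 22 from 26646428 to 26676475, plus strand. Its repeats hold the motif ACTAAC, which is close to the branch point of introns, and the densest 5 of them are shown with the motif in capitals because they are the feature by which MIAT binds splicing factor 1. Its longest transcript has 14 such motifs on the transcribed strand, the strand searched here. MALAT1 has 0 and NEAT1 has 5, and of 329 lncRNA transcripts of at least 5000 bases 51.7% hold at least 1 and 7 hold 14 or more.
MIAT, transcript bases 5080 to 5225, chr22:26671412-26671557, plus strand: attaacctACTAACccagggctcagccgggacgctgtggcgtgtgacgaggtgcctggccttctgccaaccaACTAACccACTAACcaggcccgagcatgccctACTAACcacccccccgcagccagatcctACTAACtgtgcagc

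MIAT was measured at 1.92, 1.59, 1.34 and 1.95 CPM without DOX and at 2.9, 2.47, 2.4 and 1.94 CPM with DOX, on 66 to 147 counts per library. The lowest DOX library fell among the untreated ones. The log2FC was 0.52 (SE 0.16, adjusted p = 0.00981, edgeR), and the exact permutation test gave p = 0.0571. With the length trend removed the log2FC was 0.32 (adjusted p = 0.0349). MIATNB, an lncRNA that overlaps MIAT on the same strand and shares 221 exonic bases with it, rose from 2.89 ± 0.274 to 4.99 ± 0.434 CPM (SD, n = 4 each; log2FC 0.79, adjusted p = 2.33e-05, edgeR), and reads from the shared bases were divided between both by the authors' quantification. The ratio of MIATNB to MIAT counts was 1.74 ± 0.382 and 2.08 ± 0.197 (SD, n = 4 each) with overlapping groups (exact permutation p = 0.171, adjusted p = 0.192). MN1, a transcriptional coregulator gene and the nearest coding gene downstream of MIAT, lies 1071801 bases away and fell by 0.74 on the log2 scale (adjusted p = 4.52e-05, edgeR).

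NORAD is a single-exon gene at positions 36045622 to 36050960 of chromosome 20 (minus strand). Pumilio proteins bind the RNA word TGTANATA (T standing for U), and 4 of the NORAD sites are shown, each in 30 bases with the word in capitals, because these sites are what NORAD is known for. Its 5339-base transcript holds 15 of them on the transcribed strand, 10 spelled TGTATATA, 4 TGTAAATA and 1 TGTACATA, which is 2.81 per kilobase. TUG1 holds 2, NEAT1 6, and MALAT1, MIAT, DANCR and CRNDE 0, and of the 329 long lncRNA transcripts 48.3% hold at least 1 and 4 hold 15 or more, NORAD included.
NORAD site at transcript base 1140, chr20:36049802-36049831, minus strand: ctcactactgTGTATATAgttgacaatgct
NORAD site at base 1825, chr20:36049117-36049146, minus strand: aataccacttTGTAAATAtctttttgctaa
NORAD site at base 2972, chr20:36047970-36047999, minus strand: aaccctactgTGTATATAgcggacaaactt
NORAD site at base 3593, chr20:36047349-36047378, minus strand: aatgctactgTGTATATAatggaaaactta

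NORAD was measured at 601, 543, 479 and 565 CPM in untreated libraries and at 411, 454, 413 and 393 CPM in DOX libraries. The groups did not overlap. The means were 546.9 ± 51.4 and 417.9 ± 26.1 CPM (SD, n = 4 each), and NORAD fell by 0.39 on the log2 scale (SE 0.07, 1.31 times lower, adjusted p = 0.000347, edgeR).

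PUM2, a Pumilio gene, did not pass the test. It was at 152.9 ± 14.3 and 150 ± 6.02 CPM (SD, n = 4 each), with a log2FC of -0.03 (adjusted p = 0.711, edgeR). The ratio of NORAD to PUM2 counts was 3.58 ± 0.163 without and 2.78 ± 0.0752 with DOX (SD, n = 4 each), with no overlap (exact permutation p = 0.0286, adjusted p = 0.0429). Of 8 genes for proteins reported to bind NORAD, 5 changed, 4 of them lower and 1 higher, beside 76.6% of all genes called. Their median log2FC was -0.23, beside 0.01 over all genes tested. With library totals alone 6 of the 8 were called, and without untreated library 2 only 4. The nuclear RNA-binding protein RBMX, which is thought to join NORAD in a complex with topoisomerase I, fell by 1.44 on the log2 scale (adjusted p = 5.87e-11, edgeR). The mRNA export factor ALYREF fell by 1.2 (adjusted p = 5.07e-08, edgeR), and TOP1, topoisomerase I, rose by 0.13 (adjusted p = 0.0234, edgeR). Of the coding neighbours of NORAD, CNBD2 fell by 0.56 (adjusted p = 0.0135, edgeR) and EPB41L1, a cytoskeletal adaptor, rose by 0.28 (adjusted p = 9.45e-05, edgeR).

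TUG1 lies on the plus strand of chromosome 22 from 30969245 to 30979395, with MORC2 divergently oriented 946 bases away. It was measured at 496, 480, 390 and 489 CPM without DOX and at 397, 411, 376 and 375 CPM with DOX. Untreated library 3 lay among the DOX libraries and the other untreated ones above them. TUG1 fell by 0.25 on the log2 scale (SE 0.07, adjusted p = 0.00822, edgeR), and the exact permutation test gave p = 0.0857. The call was lost when library totals alone were used for scaling (log2FC -0.13, adjusted p = 0.169), a scaling that moves the median of all genes up by 0.127. Without untreated library 3 the log2FC was -0.34 (adjusted p = 3.99e-06, edgeR).
MORC2, a chromatin-compacting ATPase, was at 93.9 ± 2.9 and 96.7 ± 2.96 CPM (SD, n = 4 each) and did not pass the test (log2FC 0.04, adjusted p = 0.386, edgeR), and the ratio of TUG1 to MORC2 counts was 4.95 ± 0.647 and 4.03 ± 0.249 (exact permutation p = 0.0571, adjusted p = 0.0734). SMTN, the next coding gene on the other side and a smooth-muscle cytoskeletal protein, fell by 1.21 (adjusted p = 1.2e-08, edgeR).

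MYC and its partner MAX bind the E-box CACGTG, which reads the same on both strands, so the RefSeq promoter windows (250 bases before to 50 after each start, GRCh38.p14) of 9 of the 10 lncRNAs, 14 windows in all, were searched for it. NEAT1 was not in that table. TUG1 and NORAD held 1 E-box each, 77 and 138 bases before the start, and no window of the other 7 held these letters. Of the 6 tested lncRNAs with a window these are 2, beside 12.7% of the 10676 tested genes with a window. Of the 1352 tested genes with such a window 41.2% were lower and 35.4% higher with DOX, beside 37.9% and 39.9% of the 9324 tested genes without one. The letters say nothing of whether MYC was bound in these cells. The NORAD and TUG1 windows are shown with the E-box in capitals because they are the only ones of the 14 that hold it. MALAT1, whose windows lack it, was also lower with DOX (log2FC -0.41). Whether the E-box has a part in any of these falls was not tested.
NORAD promoter, chr20:36050911-36051210, minus strand: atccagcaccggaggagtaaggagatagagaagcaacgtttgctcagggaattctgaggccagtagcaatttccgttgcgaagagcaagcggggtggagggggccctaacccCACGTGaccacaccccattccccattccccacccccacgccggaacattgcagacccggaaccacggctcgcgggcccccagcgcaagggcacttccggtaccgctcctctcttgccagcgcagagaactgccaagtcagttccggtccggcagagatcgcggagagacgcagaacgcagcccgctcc
TUG1 promoter, chr22:30969015-30969314, plus strand: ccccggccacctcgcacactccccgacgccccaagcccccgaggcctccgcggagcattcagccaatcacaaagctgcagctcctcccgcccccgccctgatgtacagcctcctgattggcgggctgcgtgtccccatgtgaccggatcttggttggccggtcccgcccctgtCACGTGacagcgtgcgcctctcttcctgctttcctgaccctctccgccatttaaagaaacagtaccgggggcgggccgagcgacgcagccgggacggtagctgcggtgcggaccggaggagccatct

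DANCR had the largest fitted change among the 7 tested with all 8 libraries, although without untreated library 1 its log2FC was 0.55, below those of NEAT1 (0.59) and MIAT (0.56). It lies on the plus strand of chromosome 4 from 52712404 to 52720351 and hosts the small nucleolar RNA SNORA26 and the microRNA MIR4449, both listed at 0 in these libraries. DANCR was measured at 4.22, 4.66, 5.04 and 4.41 CPM without DOX and at 6.74, 6.75, 7.57 and 7.04 CPM with DOX, with no overlap. The means were 4.59 ± 0.353 and 7.03 ± 0.386 CPM (SD, n = 4 each), a log2FC of 0.62 (SE 0.08, 1.53-fold higher, adjusted p = 2.78e-05, edgeR). USP46, a deubiquitinase gene and its nearest tested coding neighbour, rose by 0.27 (adjusted p = 0.00322, edgeR).
Among 1425 other tested lncRNA genes, AC138904.1, AC008124.1 and AC007114.1 had the profiles most like that of DANCR over the 8 libraries, with root mean square differences of 0.056, 0.071 and 0.072 in centred log2(CPM + 0.5). AC138904.1 is on chromosome 16, AC008124.1 on chromosome 12 and AC007114.1 on chromosome 17, and their log2FC were 0.50, 0.62 and 0.60.

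CRNDE, at positions 54845189 to 54929189 of chromosome 16 (minus strand), was measured at 11.8, 11.5, 10.6 and 11.2 CPM without DOX and at 12, 14.6, 11.2 and 11.4 CPM with DOX. The groups overlapped and DOX library 2 stood above the rest. The log2FC was 0.13 with a 95% interval from -0.06 to 0.31 (adjusted p = 0.189, edgeR), and changes within that interval cannot be told from 0 at this spread. Scaled by library totals alone it passed the test (log2FC 0.25, adjusted p = 0.021). IRX5, the homeobox gene 1672 bases from CRNDE, and IRX3 did not pass the filter, IRX5 at 0.243 ± 0.121 and 0.28 ± 0.0618 CPM and IRX3 at 0.242 ± 0.0119 and 0.804 ± 0.194 CPM (SD, n = 4 each). IRX6 was at 0 in all untreated libraries.

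**Figure D3:**
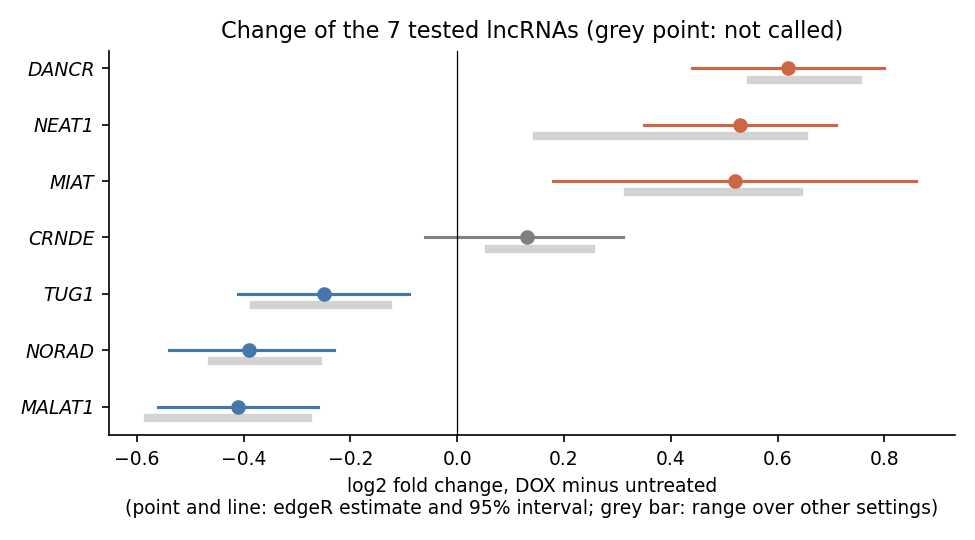
Log2FC (DOX minus untreated) of the 7 tested lncRNAs with the 95% interval of edgeR's fit (points and lines) and the range over 17 other settings (grey bars). DANCR, NEAT1 and MIAT lie above 0 and TUG1, NORAD and MALAT1 below 0 in all settings, and the grey bar of NEAT1 reaches down to 0.15.

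The 3 remaining lncRNAs were near the limit of detection. MEG3, on chromosome 14, had 0 counts in 7 libraries and 1 count in DOX library 3, where 3 counts correspond to between 0.0581 and 0.0748 CPM, so no fold is given. The other genes of that imprinted cluster were also near 0. DLK1, a Notch ligand-like protein, was at 0.00484 ± 0.00968 and 0.0376 ± 0.0196 CPM, RTL1 at 0.026 ± 0.0202 and 0.0381 ± 0.0261 CPM, MEG8 at 0.0104 ± 0.0121 and 0.00623 ± 0.0125 CPM and MEG9 at 0.0153 ± 0.0306 and 0 CPM (SD, n = 4 each). DIO3, which inactivates thyroid hormone, and its antisense DIO3OS were at 0.097 ± 0.0226 and 0.0664 ± 0.0231 CPM without DOX and at 0.164 ± 0.0346 and 0.234 ± 0.0922 CPM with DOX (SD, n = 4 each).

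CASC15, on the plus strand of chromosome 6 from 21664772 to 22368328, had 3, 5, 4 and 4 counts in the untreated libraries and 21, 14, 17 and 17 counts in the DOX libraries. Every DOX library lay above every untreated one at 16 counts in all against 69. In a fit of all 36881 genes with any count, used here because the filter removes CASC15, its log2FC was 2.10 (SE 0.37, adjusted p = 2.15e-05, edgeR). At these counts the size of the change is known only roughly, with a 95% interval from 1.33 to 2.86. NBAT1, which is antisense to CASC15 and shares 227 exonic bases with it, was at 0.00508 ± 0.0102 and 0.0375 ± 0.0208 CPM. SOX4, a developmental transcription factor gene 66152 bases away, moved the opposite way, from 114.9 ± 6.61 to 45.7 ± 2.35 CPM (SD, n = 4 each), and fell by 1.33 on the log2 scale (adjusted p = 1.2e-09, edgeR).

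SOX2-OT, on the plus strand of chromosome 3 from 180989762 to 181836880, had 7, 8, 9 and 12 counts without and 11, 6, 8 and 8 counts with DOX. The groups overlapped, and in the fit of all genes with any count the log2FC was -0.11 with a 95% interval from -0.89 to 0.68 (adjusted p = 0.845, edgeR). SOX2, the stem-cell transcription factor gene inside it, was at 0.0316 ± 0.0268 and 0.00489 ± 0.00977 CPM (SD, n = 4 each). DNAJC19, which overlaps one end of SOX2-OT on the opposite strand, fell by 0.61 on the log2 scale and FXR1 by 0.55 (adjusted p = 2.43e-06 and 1.93e-07, edgeR). ATP11B, 956619 bases away, rose by 0.44 (adjusted p = 0.00118, edgeR).

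Levels of different lncRNAs were compared per kilobase of merged exons. In untreated cells the order was MALAT1 with 115.5 ± 6.41 CPM per kilobase, NORAD with 102.4 ± 9.63, TUG1 with 45.7 ± 4.88, NEAT1 with 36.7 ± 4.52, DANCR with 2.01 ± 0.155, CRNDE with 1.93 ± 0.085 and MIAT with 0.144 ± 0.0245 (SD, n = 4 each). The ranges of MALAT1 and NORAD, of TUG1 and NEAT1, and of DANCR and CRNDE overlapped. With DOX the order was MALAT1 with 87.1 ± 8.03, NORAD with 78.3 ± 4.89, NEAT1 with 52.9 ± 3.03, TUG1 with 38.4 ± 1.75, DANCR with 3.08 ± 0.169, CRNDE with 2.11 ± 0.265 and MIAT with 0.205 ± 0.0332 CPM per kilobase (SD, n = 4 each). On this scale TUG1 was above NEAT1 in all 4 untreated libraries and below it in all 4 DOX libraries, but the switch depends on the length used: per kilobase of the longest transcript TUG1 was at 53.1, 55.1, 50.3 and 50.1 and NEAT1 at 54.8, 54.7, 53.9 and 48.4 CPM in DOX libraries 1 to 4, with overlap. Of these neighbours in the DOX order MALAT1 and NORAD overlapped. The median of the tested genes was 4.51 CPM per kilobase without and 4.6 with DOX, so the 4 abundant lncRNAs lay above it and DANCR, CRNDE and MIAT below it. CASC15, SOX2-OT and MEG3 were at or below 0.0276 CPM per kilobase on average in either group. Together the 10 lncRNAs took between 0.24% and 0.313% of the counts of a library.

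The libraries differed in how levels depended on transcript length. The deviation of a gene in a library was taken from the mean of the other libraries of the same group, in log2(CPM + 0.5). In untreated library 3 this deviation had a Spearman correlation of -0.561 with the length of the gene's longest transcript across 15116 genes. These genes share the libraries and are not independent replicates. The other untreated libraries, whose reference mean includes library 3, had 0.443, 0.227 and 0.37, and the DOX libraries 0.321, 0.244, -0.221 and -0.371. Untreated library 3 was the lowest of the untreated ones for MALAT1, NEAT1, TUG1, NORAD and MIAT, whose longest transcripts have 5339 bases or more, and the highest for DANCR, whose longest transcript has 904 bases. CRNDE, with a longest transcript of 2601 bases, went against the trend, with a deviation of -0.11 in that library beside a median of 0.072 in its length quartile. DOX library 4 was the lowest of its group for MALAT1, NEAT1, TUG1, NORAD and MIAT. Between the groups the median log2FC went from -0.147 in the length quartile with the shortest transcripts to 0.138 in the quartile with the longest. With the length trend removed, MALAT1, NORAD and TUG1 had log2FC of -0.58, -0.46 and -0.38 and DANCR one of 0.75. What part length has in the change of each lncRNA was not tested beyond that correction.

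**Figure D4:**
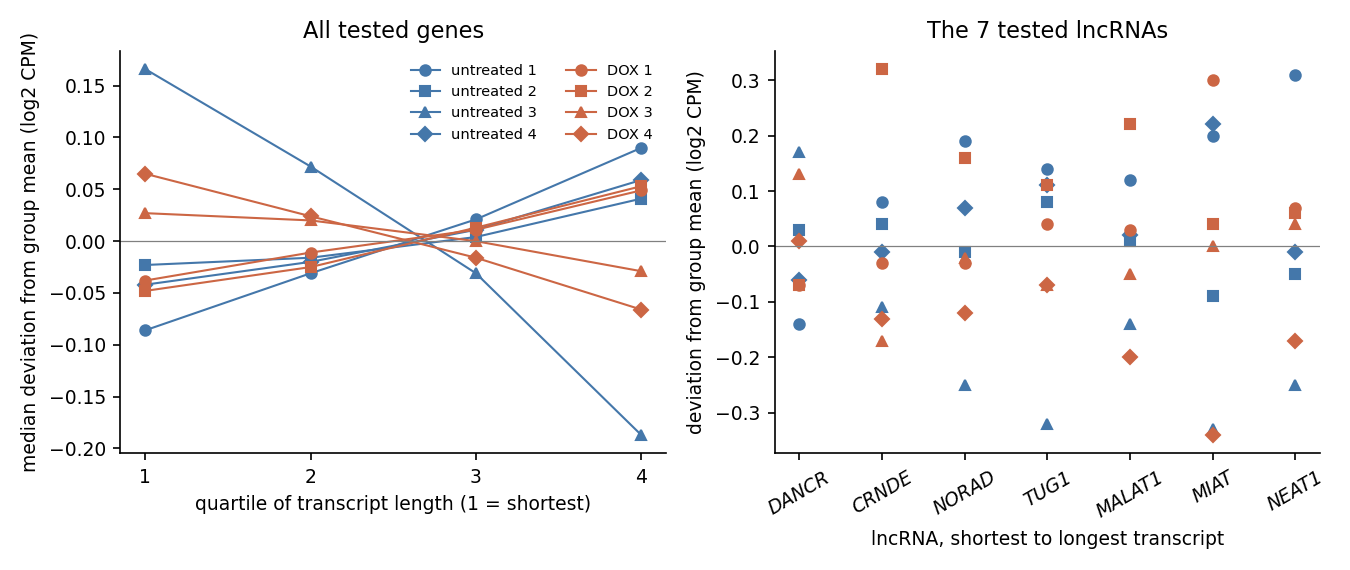
Deviation of each library from the mean of the other libraries of its group (labelled group mean on the axes) in log2 CPM. It is given as the median over tested genes in 4 quartiles of transcript length (left, 1 being the shortest). On the right it is given for each of the 7 tested lncRNAs ordered by length, and marker shapes give the library number. In untreated library 3 the median goes from 0.166 in the shortest to -0.187 in the longest quartile.

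Genes for proteins of the bodies and complexes to which these lncRNAs belong were listed with earlier results known, and their mRNAs were measured here, not the proteins. All 12 genes listed for paraspeckle proteins changed, 11 lower and 1 higher with DOX, beside 76.6% of all genes called, 38.1% lower and 38.5% higher. Their median log2FC was -0.36 beside 0.01 over all genes tested. NONO, a core paraspeckle protein that binds NEAT1, was at 952, 979, 1024 and 986 CPM without DOX and at 503, 506, 517 and 530 CPM with DOX. It fell by 0.94 on the log2 scale (SE 0.04, adjusted p = 1.9e-09, edgeR), so that NEAT1 and the mRNA of its binding protein moved in opposite directions. The ratio of NEAT1 to NONO counts was 0.85 ± 0.129 and 2.35 ± 0.184 (SD, n = 4 each), 2.76 times higher with DOX (exact permutation p = 0.0286, adjusted p = 0.0429). This ratio, too, is not corrected for transcript length. PSPC1, its paralogue, fell by 0.76 (adjusted p = 1.83e-08, edgeR). The exception was CPSF6, a 3′-end processing factor, which rose by 0.31 (adjusted p = 0.000392, edgeR).

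Of 12 genes for nuclear speckle proteins 4 were higher, 5 lower and 3 did not pass, a share near the 76.6% of all genes called, with a median log2FC of 0.02. SRRM2, a scaffold of the speckle, rose by 0.36 and the splicing factor SRSF4 by 0.31 (adjusted p = 0.000407 and 2.68e-05, edgeR), whereas the splicing factors SRSF3 and SRSF2 fell by 0.73 and 0.68 (adjusted p = 5.64e-08 and 4.41e-08, edgeR). Of 11 genes for proteins of RNase P and RNase Z, the enzymes that trim the ends of MALAT1, 7 were lower, 1 higher and 3 did not pass (median log2FC -0.32), again near 76.6% called, with 38.1% of all genes lower. RPP25 fell by 2.57 and POP7 by 0.96 on the log2 scale (adjusted p = 2.85e-08 and 6.04e-07, edgeR), and RPP14 rose by 0.14 (adjusted p = 0.0226, edgeR). RPP25 was at 3 ± 0.389 and 0.503 ± 0.0788 CPM (SD, n = 4 each). It passed the filter only through the untreated libraries, so it is no support for a direction or a size. Without untreated library 4 only 5 of the 11 genes were called.

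Of 11 genes for core and accessory proteins of PRC2, 4 were higher, 4 lower and 3 did not pass (median log2FC -0.03), near the 76.6% of all genes called. PHF19, an accessory subunit, was between 82.9 and 87.8 CPM without and between 15.5 and 16.2 CPM with DOX and fell by 2.41 on the log2 scale, and the methyltransferase EZH2 fell by 1.07 (adjusted p = 1.25e-12 and 7.29e-10, edgeR). EED, which reads the mark, rose by 0.42 and the DNA-binding subunit AEBP2 by 0.31 (adjusted p = 4.21e-06 and 0.000232, edgeR).

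For comparison, 35 other lncRNAs linked to cancer were listed, of which 33 were matched by name and 17 passed the filter. Of these, 8 were higher, 7 lower and 2 did not pass, beside 76.6% of all genes and 70.3% of lncRNA genes called. LINC-ROR, LUCAT1 and CDKN2B-AS1, which are among those called, were below 1 CPM in every library of their lower group. They passed the filter only through the group in which they were higher, so these counts are no support for a direction or a size. LINC-ROR, an RNA of pluripotent cells, went from 3.25 ± 0.239 to 0.181 ± 0.0292 CPM (SD, n = 4 each), with a fitted log2FC of -4.15. The small nucleolar RNA hosts SNHG1 and SNHG16 fell by 1.53 and 1.52 (adjusted p = 2.92e-10 and 1.17e-10, edgeR), and PCAT1 by 0.93 (adjusted p = 0.000107, edgeR). The largest rises were those of MIR22HG, the host of a microRNA, with a log2FC of 2.17 and TP53TG1, a p53-induced RNA, with 1.96 (adjusted p = 8.84e-09 and 4.65e-08, edgeR). LUCAT1 and CDKN2B-AS1, which is antisense to a cell-cycle inhibitor, had fitted log2FC of 1.55 and 0.72, with the limit given above.

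**Figure D5:**
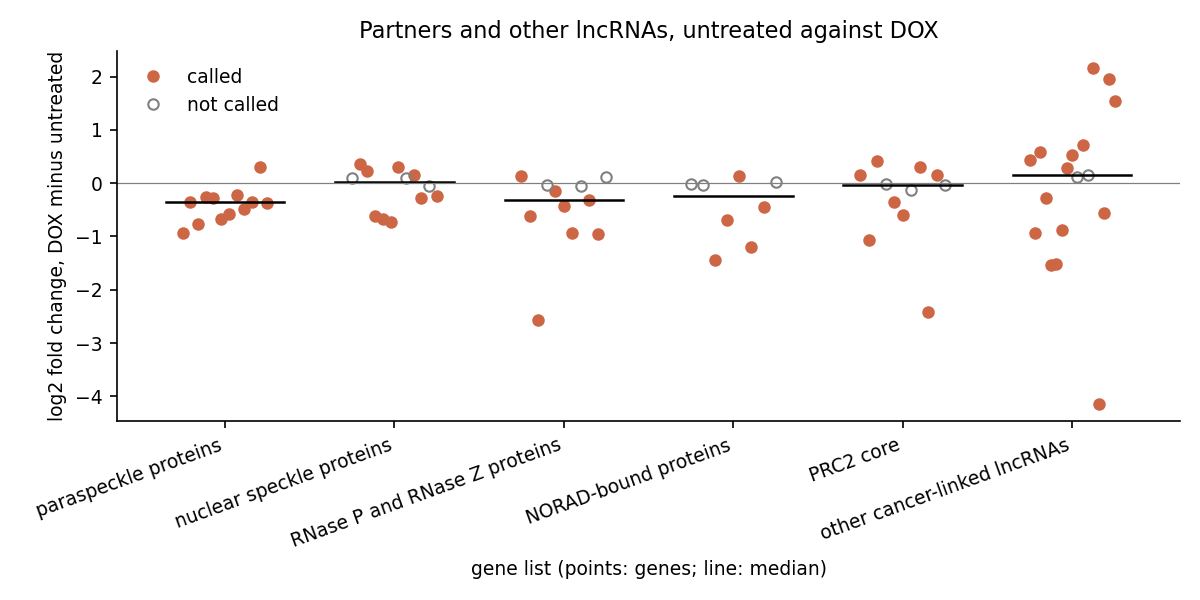
Log2FC (DOX minus untreated) of the tested genes in 6 lists, with filled points for genes called at an FDR below 0.05 in edgeR's test, open points for genes not called and lines for list medians. Of 12 genes for paraspeckle proteins 11 lie below 0, while other lncRNAs spread from -4.15 to 2.17. The lowest point is LINC-ROR, which passed the filter only through the untreated libraries.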

How the data were processed

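RNA-Seq of 4 untreated and 4 DOX-treated D283-OMO libraries was analysed, with groups taken from titles and treatment labels. The authors deposited RSEM expected counts per gene, not normalized, from reads trimmed with Trim Galore and aligned with STAR to GRCh38, and RSEM divides reads that match several genes. Whether counting used strand is not given in the sources used here. Counts were rounded. Genes above 1 CPM in 4 or more libraries were tested with edgeR 4.0.16 (TMM scaling, quasi-likelihood test, Benjamini-Hochberg adjustment over 15222 genes, no block) and called at an FDR below 0.05. CPM are TMM-scaled. Names, lengths and coordinates are those of GENCODE 29 (58561 of 60668 identifiers matched, and 2088 more by a table of names). Totals of 38390696 to 54020506 counts set the precision, with a floor of 3 counts, and floors cover counting error only. Exact permutation tests were two-sided over 70 divisions. The fits were also run on simulated counts in which few genes changed, so that run does not check scaling where most genes change. Recovery was required there only for changes larger than those of the tested lncRNAs. Replicates were compared and none was a copy.

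The members and lists were chosen with earlier results of these data known. Besides the 10 members, the text names every locus partner and MYC check gene, tested neighbours, and up to 2 of the largest rises and falls per list without overlap between groups (4 for other lncRNAs). Alternatives were other scalings, tests (DESeq2 1.42.0, likelihood ratio), filters, thresholds, lengths, a replicate block and each library left out. The same-numbered libraries correlated between -0.24 and 0.314, so the numbers were not taken to pair samples. Some genes that this rule names are not reported here.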

Additional observations from a re-analysis of the deposited data

Results flagged for a closer look

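Among the 19 groups of 4 libraries examined, 3 held a library whose gap to its nearest neighbour took an unusually large part of the group's range by Dixon's test, where chance gives about 1 in 20. NEAT1 in DOX library 4 stood at 1102 CPM, below the other 3. TUG1 in untreated library 3 stood at 390.1 CPM, below the other 3. MEG3 in DOX library 3 stood at 0.0195 CPM, which is 1 count where the other 3 libraries had 0.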

How the results depend on the processing

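Direction was kept by all 7 tested lncRNAs in all 17 alternatives, and 5 of them (MALAT1, NEAT1, DANCR, NORAD and MIAT) stayed called in each. With library totals alone TUG1 lost its call (log2FC -0.13) and CRNDE gained one (0.25), and 60.3% of calls were higher with DOX, beside 50.3% with TMM. With the limits in the methods of the study (FDR below 0.001, log2FC beyond 2 in size), 1084 genes were called, with 0 of the 7 tested lncRNAs. Of the lists, 0 paraspeckle, 0 nuclear speckle, 1 RNase P or Z, 0 NORAD-bound and 1 PRC2 protein and 2 other lncRNAs were called. At an FDR below 0.05 and a size beyond 1 these were 3175 genes and 0, 0, 0, 1, 2, 2 and 6. RPP25 and LINC-ROR are counted at both settings and LUCAT1 at the second. Each of them passed the filter only through the group in which it was higher, so they are no support for a direction or a size. CASC15, removed by the filter, met both limits of the study in the fit of all genes with any count (log2FC 2.1, adjusted p = 2.15e-05, edgeR). Leaving out 1 library at a time, between 5 and 8 RNase P and Z genes were called. Per kilobase of the longest transcript, DANCR was at 5.07 without and 7.77 with DOX, TUG1 at 62.1 and 52.1 (NEAT1 at 36.7 and 52.9, so the order of TUG1 and NEAT1 with DOX was lost), CRNDE at 4.33 and 4.74, CASC15 at 0.0184 and 0.0824, SOX2-OT at 0.0456 and 0.0425 and MIAT at 0.239 with DOX. With the replicate number as a block 11805 genes and 6 of the 7 tested lncRNAs were called, beside 11661 and 6 without it. Only 1 of 4 untreated libraries correlated best with the DOX library of its number, which gives no sign that the numbers pair samples. The block changed no call of the 7 tested. The cause of these changes was not tested. Depth limits MEG3, CASC15 and SOX2-OT.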
